A study of Mus musculus with 24 samples.

Results

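The genes described here are the β-arrestins and some of the G protein-coupled receptor kinases that the array measured in cultured mouse osteoblasts. They are Arrb1 and Arrb2, which encode β-arrestins 1 and 2, and Grk4, Grk5 and Grk6, which encode 3 of the receptor kinases. The kinase genes Grk1 and Grk3 were measured too and are given further below as relatives. The 5 genes were taken by family and by symbol from the deposited table. The rule uses no measured value, although earlier results of these data were known when the genes were chosen. They are 5 of 22180 genes measured. Each was represented by 1 transcript cluster, so there were no further rows of the same gene to set beside it, and all 5 passed the filter on low values, as did 14892 genes in all.

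When an agonist stays bound to a G protein-coupled receptor, a receptor kinase (GRK) phosphorylates the receptor's intracellular parts. A β-arrestin then binds the phosphorylated receptor, blocks its contact with the G protein, links it to clathrin and the AP-2 adaptor for endocytosis, and can hold kinases of the MAP kinase and Src families near it. In osteoblasts the receptor for parathyroid hormone, Pth1r, is among the receptors known to be handled in this way.

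The cells were calvarial osteoblasts, the bone-forming cells of the skull vault, from pups that were 7 to 10 days old, at passage 2. One set came from C57BL/6J wild-type mice and the other from mice with a knockout of Arrb2 on the C57BL/6J background, and no other allele is named in the labels. RNA was taken on days 2, 5, 10 and 28 of culture. Both genotypes were switched on day 3 to differentiation medium, which held ascorbic acid at 50 mg/L and β-glycerophosphate at 5 mM, so only the day 2 cells had not received it. Each of the 8 combinations of genotype and day had 3 arrays from preparations that the labels call independent. The labels do not give the number or sex of pups in a preparation, or which part of Arrb2 the knockout removes. Values are log2 expression values, on which a difference of 1 is a doubling. A gene is called changed when its adjusted p in limma was under 0.05.

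Array medians lay between 4.55 and 4.72, and no pair of arrays held identical values. Osteoblast markers were present on day 2, when 4 or 5 of the 11 measured were below the array's median, and on day 28 from 0 to 2 were. Markers of macrophages and of adipocytes also became high during culture and are given beside the results they move with. Xist, which is transcribed from the inactive X chromosome, was between 3.56 and 4.31 in the wild-type arrays numbered 2 on all days and between 7.72 and 10.0 in every other array, so 1 wild-type preparation stood apart throughout. No knockout array lay in the lower range, so every comparison between the genotypes carries this imbalance. Its part in their differences was not tested. Because these are bulk samples, fewer cells of a type and less RNA per cell cannot be told apart.

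Arrb2, the targeted gene, gave a higher signal in the labelled knockout than in the labelled wild type. On day 2 it was 5.73, 5.93 and 5.98 in the arrays labelled wild type and 6.96, 7.42 and 6.89 in those labelled knockout. On day 5 it was 5.16, 5.18 and 5.00 in the labelled wild type and 6.64, 6.79 and 6.64 in the labelled knockout. On both days every array labelled knockout was above every array labelled wild type. The direction goes against the label, and the position of the array's probes relative to the deleted part is not given in the sources used here. Whether the probes lie inside the deleted part was therefore not tested, and the groups are called labelled knockout and labelled wild type from here on.

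On the later days the gap in Arrb2 was smaller. On day 10 the labelled wild type was at 5.51, 5.85 and 6.04 and the labelled knockout at 6.65, 6.78 and 6.44, again with no overlap. On day 28 the labelled wild type had 6.16, 6.36 and 6.81 and the labelled knockout 6.80, 7.11 and 6.64, and the arrays overlapped. The labelled knockout exceeded the labelled wild type by 1.21 on day 2 (2.31-fold, 95% interval 0.84 to 1.58, adjusted p = 0.0206) and by 1.58 on day 5 (2.99-fold, interval 1.21 to 1.95, adjusted p = 0.000357). The difference was 0.82 on day 10 (interval 0.45 to 1.19, adjusted p = 0.0932) and 0.40 on day 28 (interval 0.03 to 0.78, adjusted p = 0.797), neither of which passed the threshold. As a mean over the 4 days it was 1.00 (2.00-fold, interval 0.82 to 1.19, adjusted p = 6.44e-06), with the labelled knockout higher on 4 of 4 days. The day 10 difference was called when replicate 3 of the labelled wild type was left out (0.94, adjusted p = 0.0367). Other single omissions left it uncalled, with values down to 0.68 and an adjusted p up to 0.507.

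Arrb2 was the 1 gene called between the genotypes on day 2, and also the 1 gene called on day 5, so 0.00672% of the genes tested were called on each of those days. On days 10 and 28 and for the mean over days 0.0336%, 0.228% and 0.188% were called. The arrays of the genotypes did not overlap for 6.19%, 7.16%, 11.7% and 9.35% of genes on days 2, 5, 10 and 28. The day 2 call was lost when any 1 of the labelled wild-type day 2 arrays or replicate 2 of the labelled knockout was left out (adjusted p up to 0.175), with a second quantile normalisation and with only the groups compared, whereas the day 5 call was kept without any single array. With each preparation reduced to its mean over days, the difference of 1.00 had an adjusted p of 0.279.

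**Figure D1:**
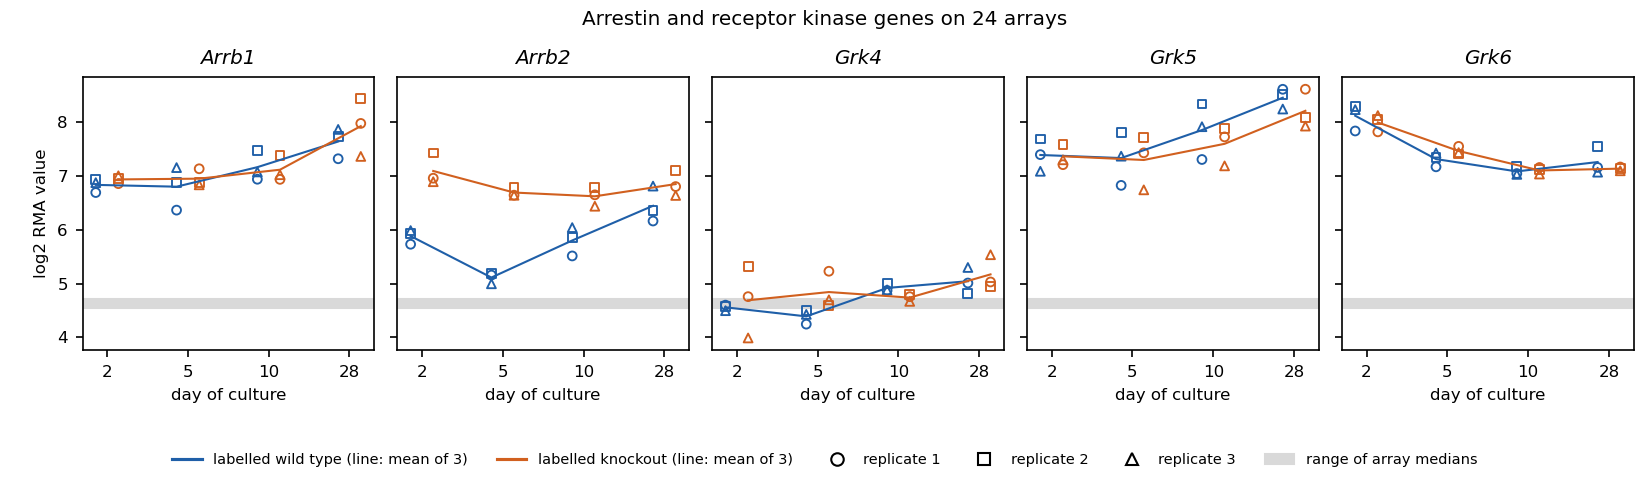
Log2 expression of the 5 genes (vertical axes) in all 24 arrays by day of culture (horizontal axes), with arrays labelled wild type in blue and labelled knockout in orange; point shapes are the replicate numbers, lines join group means, and the grey band is the range of array medians. Arrb2 in the labelled knockout lies above the labelled wild type on days 2, 5 and 10, and Grk6 lies lower on every later day than on day 2 in both genotypes.

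Arrb2 also changed with time in the labelled wild type. It fell by 0.77 from day 2 to day 5 (1.71-fold, adjusted p = 0.0142), was 0.08 below day 2 on day 10, and was 0.56 above it on day 28 (1.48-fold, adjusted p = 0.0165). The rise of 0.69 from day 5 to day 10 was called as well (adjusted p = 0.0168, a comparison added after the values were seen, in which 10.5% of genes were called). Against day 2, 5.55%, 30.7% and 38.8% of genes were called on days 5, 10 and 28 in the labelled wild type and 2.77%, 24.6% and 38% in the labelled knockout. The arrays did not overlap for 23.4%, 41.6% and 52.8% of genes in the first and 22.9%, 43.2% and 47.7% in the second. The day 5 fall lost its call without day 2 replicate 2 or 3 (adjusted p up to 0.0612). The day 28 rise lost it without day 2 replicate 1 or day 28 replicate 3 (up to 0.122) and when arrays were centred or normalised again. The rise from day 5 to day 10 lost it without day 5 replicate 3 or day 10 replicate 2 or 3 (up to 0.0785).

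In the labelled knockout Arrb2 changed by -0.40 by day 5, -0.47 by day 10 and -0.24 by day 28, none of them called (adjusted p = 0.284, 0.06 and 0.31). The day 5 and day 10 arrays nevertheless lay wholly below those of day 2. With the preparation number as a block, the day 10 value of -0.47 had an adjusted p of 0.0142. The change to day 28 differed between the genotypes by -0.81, labelled knockout minus labelled wild type, and this difference did not pass the threshold over all genes (unadjusted p = 0.0046, adjusted p = 0.977; 0.00672% of genes called). Ordered by group mean, the 4 labelled wild-type groups were the lowest of the 8, from 5.11 ± 0.10 (SD, n = 3) on day 5 to 6.44 ± 0.33 on day 28, and the 4 labelled knockout groups the highest, from 6.62 ± 0.17 on day 10 to 7.09 ± 0.29 on day 2. Neighbours in that order overlapped except labelled wild-type day 5 against day 10 and labelled wild-type day 2 against day 28.

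The genes on either side of Arrb2 on chromosome 11 did not share its difference at a called level. None of the 5 nearest tested genes on each side was called on any day or over the mean of days. Their mean differences between the genotypes ran from -0.27 for Med11, a Mediator subunit that is the next tested gene, to 0.23 for Slc16a13, a monocarboxylate transporter family member, with a lowest adjusted p of 0.437. On single days they ran from -0.48 for Med11 to 0.44 for Alox15, a lipoxygenase, both on day 10.

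Over the 24 arrays the genes most like Arrb2 were Kdm6a (r = 0.704), an X-linked histone demethylase gene, Rabep1 (0.696), which encodes an effector of Rab5, and Tle4 (0.684), a transcriptional corepressor gene. Rabep1 also lies on chromosome 11, with 17 tested genes between it and Arrb2. It was 0.29 higher in the labelled knockout over the mean of days, which was not called (adjusted p = 0.187). Rabep1 was picked for its likeness to Arrb2 on these same arrays, so this value only describes that likeness.

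**Figure D2:**
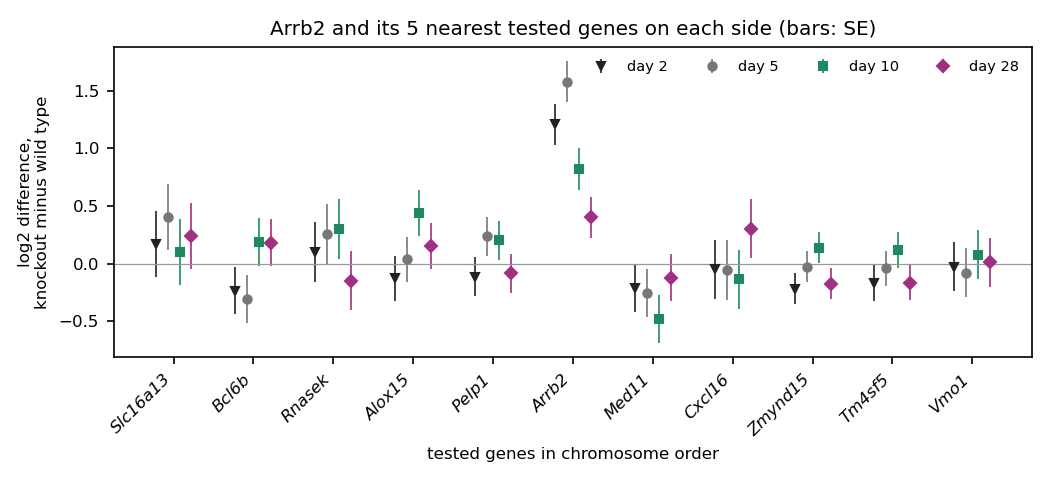
Log2 difference between labelled knockout and labelled wild type (vertical axis) for Arrb2 and the 5 nearest tested genes on each side in chromosome order (horizontal axis), one point per day with its standard error from limma as a bar. Arrb2 runs from 0.40 to 1.58, and the neighbours lie between -0.48 and 0.44.

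Arrb1, the paralogue of Arrb2, rose late in both genotypes. It was 6.69, 6.93 and 6.87 in the labelled wild type on day 2 and 7.32, 7.73 and 7.86 on day 28. In the labelled knockout it was 6.86, 6.95 and 7.00 on day 2 and 7.97, 8.44 and 7.36 on day 28. Every day 28 array was above every day 2 array of its genotype. The rise was 0.80 in the labelled wild type (SE 0.23, 1.75-fold, adjusted p = 0.00894) and 0.99 in the labelled knockout (SE 0.23, 1.99-fold, adjusted p = 0.0021), and both calls were kept without any single array.

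Before day 28 no change of Arrb1 was called. Group means were 6.80 ± 0.40 and 7.16 ± 0.28 (SD, n = 3) on days 5 and 10 in the labelled wild type, and 6.95 ± 0.16 and 7.11 ± 0.24 in the labelled knockout. Changes from day 2 were -0.03 and 0.33 in the first and 0.01 and 0.18 in the second, with adjusted p from 0.31 to 0.989. The labelled wild-type day 10 arrays, at 6.94, 7.47 and 7.07, nonetheless all lay above those of day 2. From day 10 to day 28 the labelled knockout changed by 0.81 (adjusted p = 0.08, and 0.0238 with the preparation number as a block). All neighbouring pairs of groups in the order of means overlapped.

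No difference in Arrb1 between the genotypes was called. The labelled knockout minus the labelled wild type was between -0.05 and 0.29 on single days, none called, and 0.12 over the mean of days (95% interval -0.12 to 0.36, adjusted p = 0.749). The interval leaves room for a modest difference in either direction. Like the mean intervals of the other members, it treats same-numbered arrays of different days as independent.

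Macrophage markers were also higher on day 28, when Arrb1 was. Of 15 such markers, 14 rose by day 28 in the labelled wild type and 15 in the labelled knockout, with median changes of 3.27 and 3.49 against -0.03 and -0.02 over all genes tested. Their mean in the labelled wild type on day 28 was 7.76, 8.15 and 8.84 in replicates 1 to 3, and in the labelled knockout 8.50, 10.3 and 6.89. In both genotypes this is the order of the day 28 arrays in Arrb1. Arrb2 had that order on day 28 in both genotypes as well. In the labelled knockout Arrb2 also had the marker order on days 2, 5 and 10. In the labelled wild type it had that order on day 5 but not on days 2 and 10. The part of macrophage RNA in the signal of Arrb2 was not tested. For Arrb1 the full order was not shared on earlier days. On day 5 labelled wild-type replicate 3 was highest in Arrb1 (7.15) and lowest in the marker mean (4.76). In the labelled knockout on day 5, replicate 2 had the highest marker mean (6.29), with Arrb1 at 6.88 against 7.13 in replicate 1. On day 10 replicate 2 was highest in both measures in each genotype. On day 2 the marker mean was 4.57 to 4.70 in the labelled wild type and 4.63 to 5.34 in the labelled knockout, and summed levels went from 68.6 to 70.5 and 69.5 to 80.1 on day 2 to between 116 and 133 and between 103 and 155 on day 28. From 8 to 9 of the 15 were below the array median in the labelled wild type on day 2 and from 2 to 7 in the labelled knockout, and 0 were on day 28.

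The 3 genes whose pattern over the 24 arrays was most like that of Arrb1 were Dock2 (Pearson r = 0.938), which encodes an exchange factor for Rac in blood cells, Gab3 (0.937), an adaptor protein gene, and Tnfaip8l2 (0.937). The arrays share their groups and preparations, so these correlations are a description. Without the labelled knockout preparation numbered 2, which had the highest macrophage mean on each day, the Arrb1 rise by day 28 in the labelled knockout was 0.74 (adjusted p = 0.0421). The part of macrophage RNA in the rise of Arrb1 was not tested.

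**Figure D3:**
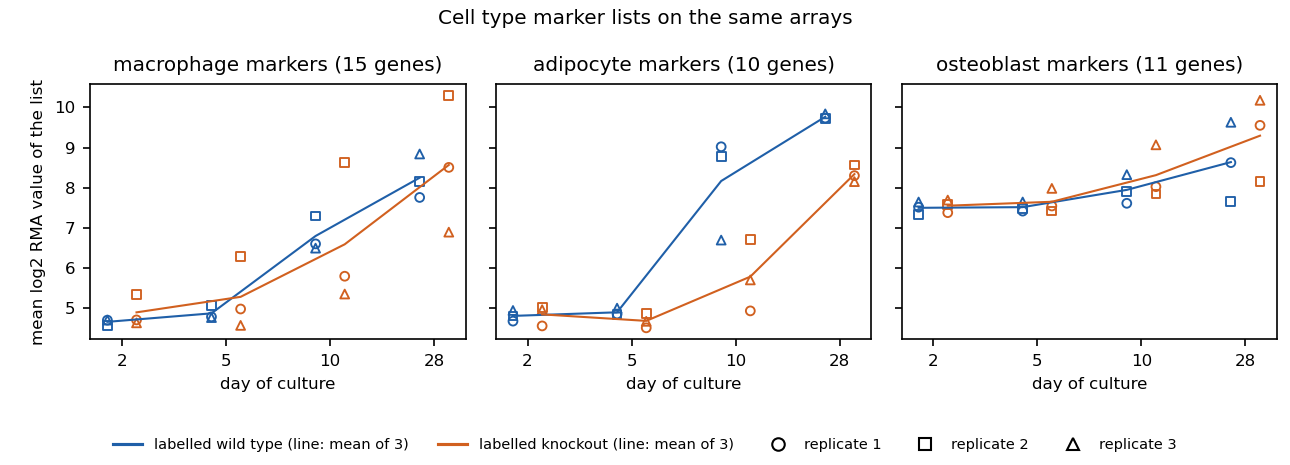
Mean log2 value of the macrophage, adipocyte and osteoblast marker lists (vertical axis) in each array by day of culture (horizontal axis), with labelled wild type in blue and labelled knockout in orange, point shapes for replicate numbers and lines through group means. All 3 lists are higher on day 28 than on day 2 in the group means, and the macrophage mean runs from 6.89 to 10.3 in the labelled knockout on day 28.

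Among the kinases Grk6 changed first, with a fall by day 5 in both genotypes. GRK6 is a membrane-associated kinase known for its abundance in immune cells and for acting on chemokine receptors. In the labelled wild type it was 7.83, 8.29 and 8.23 on day 2, then 7.17, 7.34 and 7.42 on day 5, 7.04, 7.18 and 7.03 on day 10, and 7.16, 7.55 and 7.07 on day 28. In the labelled knockout it was 7.82, 8.04 and 8.12 on day 2, then 7.55, 7.41 and 7.43, 7.16, 7.11 and 7.03, and 7.16, 7.14 and 7.09 on the later days. Every later array was below every day 2 array, of either genotype.

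The fall of Grk6 from day 2 in the labelled wild type was by 0.80 on day 5 (1.75-fold, adjusted p = 0.00137), by 1.03 on day 10 (2.05-fold, adjusted p = 1.25e-05) and by 0.86 on day 28 (1.81-fold, adjusted p = 4.77e-05). In the labelled knockout it fell by 0.53 on day 5 (1.44-fold, adjusted p = 0.0364), by 0.89 on day 10 (1.86-fold, adjusted p = 0.000104) and by 0.86 on day 28 (1.81-fold, adjusted p = 5.81e-05). The SE was 0.14 for each. Calls were least common on day 5 over all genes, at 5.55% and 2.77%, against 30.7% and 24.6% on day 10. On day 28 they were at 38.8% and 38%. Of the 5 members, 2 were called on day 5, 1 on day 10 and 4 on day 28 in the labelled wild type, and 1, 1 and 3 in the labelled knockout.

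The day 5 call in the labelled knockout was the less firm of the day 5 results for Grk6: it was lost when any single array other than day 2 replicate 1 was left out (adjusted p up to 0.161), and without the preparation numbered 2 the value was -0.48 (adjusted p = 0.347). The other Grk6 calls were kept without any single array. No further step was called after day 5, where 10.5% and 4.76% of genes were called from day 5 to day 10 in the labelled wild type and the labelled knockout, and 1.02% and 1.65% from day 10 to day 28. From day 5 to day 10 Grk6 changed by -0.23 in the labelled wild type (adjusted p = 0.311) and by -0.36 in the labelled knockout (adjusted p = 0.132). The labelled knockout arrays of day 10 all lay below those of day 5, while the labelled wild-type arrays overlapped. Grk6 had changes from day 10 to day 28 of 0.17 in the labelled wild type and 0.03 in the labelled knockout. Between the genotypes Grk6 differed by -0.12 to 0.15 on single days and by -0.02 over the mean of days (95% interval -0.16 to 0.12, adjusted p = 0.934), the narrowest interval among the members.

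The genes most like Grk6 over the arrays were Tnk2 (r = 0.969), which encodes a non-receptor tyrosine kinase, Syde1 (0.939) and Smad7 (0.934), the inhibitory Smad of TGF-β signalling. By day 28 Tnk2 fell by 1.70 in the labelled wild type and by 1.61 in the labelled knockout, while Smad7 fell by 1.64 and fell by 1.66. Grk6 fell while the macrophage and adipocyte markers rose. On day 5, when the fall was already called, 0 of 15 macrophage and 0 of 10 adipocyte markers were called in either genotype. All 15 macrophage markers nevertheless had positive changes in the labelled knockout on that day, and their mean reached 6.29 in replicate 2. The part of other cell types in the fall of Grk6 was not tested.

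Grk5 rose late in both genotypes, the opposite direction to Grk6. GRK5 is a kinase of the same subfamily that binds membrane lipids and calmodulin and can enter the nucleus. It was 7.39, 7.68 and 7.09 on day 2 and 8.61, 8.51 and 8.24 on day 28 in the labelled wild type. In the labelled knockout it was 7.21, 7.58 and 7.30 on day 2 and 8.61, 8.09 and 7.92 on day 28. The days did not overlap in either genotype. The rise was 1.06 in the labelled wild type (SE 0.29, 2.09-fold, adjusted p = 0.00646) and 0.84 in the labelled knockout (SE 0.29, 1.80-fold, adjusted p = 0.0269).

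On days 5 and 10 no change of Grk5 was called. Means were 7.33 ± 0.49 and 7.85 ± 0.52 (SD, n = 3) in the labelled wild type and 7.30 ± 0.50 and 7.60 ± 0.36 in the labelled knockout, changes of -0.06, 0.46, -0.07 and 0.23 with adjusted p from 0.25 to 0.956. The labelled wild-type call on day 28 was kept without any single array. The labelled knockout call was lost without day 2 replicate 1 or 3 or day 28 replicate 1 (adjusted p up to 0.132), and also when arrays were centred on their medians. Neighbouring groups in the order of means all overlapped.

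Grk5 did not follow the order of the macrophage markers on day 28: in the labelled wild type replicate 1 was highest in Grk5 and lowest in the marker mean. Without the labelled knockout preparation numbered 2 the rise in that genotype was 1.01 (adjusted p = 0.0411). Adipocyte markers rose as a list as well, 10 of 10 by day 28 in both genotypes, to means of 9.73 to 9.84 in the labelled wild type and 8.15 to 8.56 in the labelled knockout from 4.67 to 4.94 and 4.56 to 5.01 on day 2. Of 11 osteoblast markers, 3 rose and 1 fell by day 28 in the labelled wild type, and 7 rose in the labelled knockout. The part of these cell types in the rise of Grk5 was not tested.

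Genes most like Grk5 were Kiss1r (r = 0.915), which encodes the G protein-coupled receptor for kisspeptin, Mark1 (0.887), a microtubule affinity-regulating kinase gene, and Rybp (0.885), a Polycomb-associated gene. Kiss1r rose by 0.47 and 0.43 by day 28 in the labelled wild type and the labelled knockout. Among the members themselves the closest pair over the 24 arrays was Arrb1 and Grk5 (r = 0.748), and Grk5 and Grk6 had r = -0.344. Between the genotypes Grk5 differed by -0.26 to -0.02 on single days and by -0.14 over the mean of days (95% interval -0.44 to 0.16, adjusted p = 0.77).

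The promoters of the 2 kinases that moved in opposite directions are shown so that their sequences can be compared. RefSeq windows of GRCm38.p6, 300 bases long and mostly before an annotated start, were matched for 3 of the 5 members, Grk4, Grk5 and Grk6. The Grk5 window is chr19:60889499-60889798 and the first of 3 Grk6 windows is chr13:55444822-55445121, both on the plus strand, read 5′ to 3′, with any CCAAT box (CCAAT or ATTGG) and GC box (GGGCGG or CCGCCC) in capitals.
Grk5 promoter: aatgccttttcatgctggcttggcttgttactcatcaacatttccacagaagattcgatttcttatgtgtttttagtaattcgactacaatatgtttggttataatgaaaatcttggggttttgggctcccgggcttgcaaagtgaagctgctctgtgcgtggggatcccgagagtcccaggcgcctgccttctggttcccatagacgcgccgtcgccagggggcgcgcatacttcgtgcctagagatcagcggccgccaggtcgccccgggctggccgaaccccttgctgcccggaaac
Grk6 promoter: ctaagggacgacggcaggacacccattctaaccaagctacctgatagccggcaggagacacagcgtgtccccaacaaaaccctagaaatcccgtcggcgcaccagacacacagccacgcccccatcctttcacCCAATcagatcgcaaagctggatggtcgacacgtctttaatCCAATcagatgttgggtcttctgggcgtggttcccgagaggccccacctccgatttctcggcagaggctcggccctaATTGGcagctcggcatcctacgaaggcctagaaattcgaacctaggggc
They are alike in composition, with 54.3% and 57.3% G or C and 19 CpG pairs each. The Grk6 window holds 3 CCAAT boxes, at positions 134, 175 and 252 of the window, and no GC box, whereas the Grk5 window holds neither. Both other Grk6 windows, which start at 55445079 and 55445081 and overlap the first, hold 5 GC boxes and 1 CCAAT box each, and the Grk4 window holds 1 GC box. Searched on both strands, the CCAAT box is in 37.4% and the GC box in 35.7% of 32851 such windows, so either is common. No member window held the cAMP response element TGACGTCA (1.79% of windows), the TATA box TATAAA (13.6%) or the E-box CACGTG (7.15%). These letters describe the windows only.

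Grk4 stayed near the array median. GRK4 is a kinase first known from testis that is also studied in the kidney for its action on dopamine receptors. It reached its array's median in 18 of 24 arrays, while the other 4 members did so in all 24. In the labelled wild type it was 4.60, 4.58 and 4.50 on day 2 and 5.01, 4.82 and 5.30 on day 28. In the labelled knockout it was 4.76, 5.32 and 3.99 on day 2 and 5.03, 4.95 and 5.54 on day 28. The labelled wild-type days did not overlap and the labelled knockout days did.

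Grk4 was 0.48 higher on day 28 than on day 2 in both genotypes, and neither value was called (SE 0.24, adjusted p = 0.113 and 0.119). Without replicate 2 of the labelled knockout on day 2, the highest Grk4 value of that group, the labelled knockout value was 0.80 and was called (adjusted p = 0.00837). Without replicate 3 of that group, its lowest Grk4 value, the labelled knockout value was 0.13 and was not called. Over single omissions its adjusted p went up to 0.684. On days 5 and 10 means were 4.39 ± 0.13 and 4.92 ± 0.07 (SD, n = 3) in the labelled wild type and 4.84 ± 0.34 and 4.74 ± 0.06 in the labelled knockout. Between the genotypes it differed by -0.18 to 0.45 on single days and by 0.13 over the mean of days (95% interval -0.11 to 0.38, adjusted p = 0.734). The genes most like it were Fbln5 (r = 0.761), which encodes an elastic fibre protein, Tsga10 (0.756) and Lmbrd1 (0.755).

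**Figure D4:**
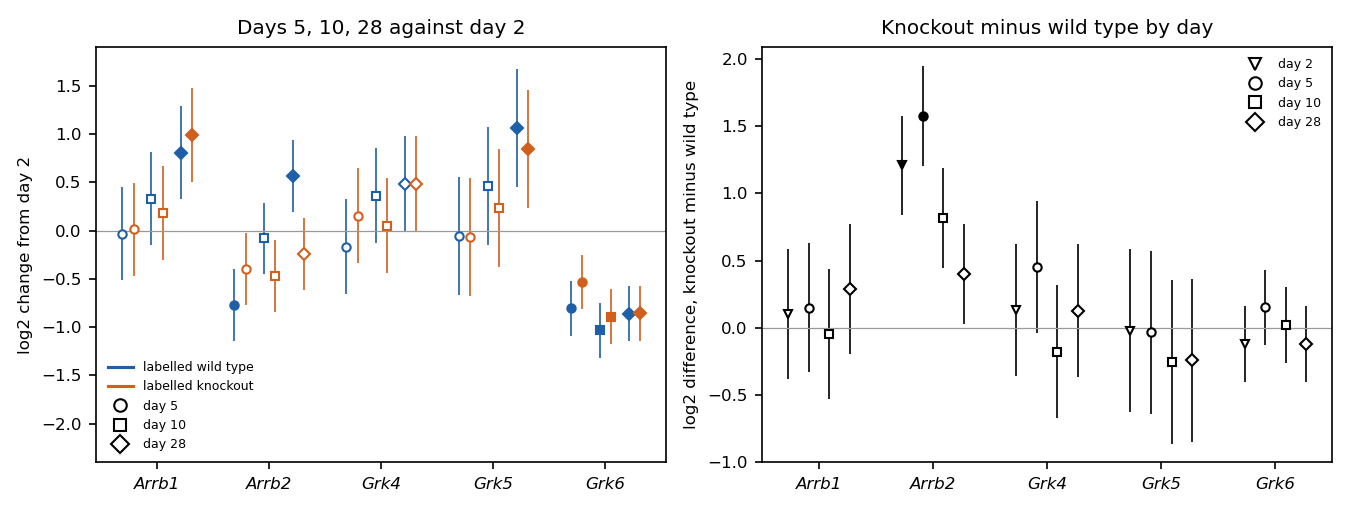
Log2 change of each member from day 2 (left) and log2 difference between labelled knockout and labelled wild type on each day (right), with 95% limma intervals; filled points are called at an adjusted p under 0.05. On the right the filled points are Arrb2 on days 2 and 5, at 1.21 and 1.58; on the left all 6 Grk6 points are filled and below 0.

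Several relatives of these genes rose by day 10 or day 28. Of 11 listed (the visual arrestins, the remaining kinases and the α-arrestins), 10 were measured and 6 tested. By day 28, 38.8% of all genes were called in the labelled wild type and 38% in the labelled knockout. Median changes of the 6 were 0.86 and 0.67 against -0.03 and -0.02 over all genes tested. By then 4 rose and none fell in each genotype. They were the α-arrestins Txnip, which binds thioredoxin and restrains glucose uptake (1.83 and 1.75), Arrdc3, which acts on the β2-adrenergic receptor (1.31 and 1.18), Arrdc4 (1.06 and 0.73) and Arrdc2 (0.66 and 0.61). Grk3 was -0.44 and -0.13 and Arrdc1 -0.09 and -0.13, none called. On day 10 Txnip had already risen by 1.26 and 0.70 and Arrdc3 by 0.90 and 0.62, and Arrdc4 had risen by 0.67 in the labelled wild type, with an uncalled 0.11 in the labelled knockout. The visual members Sag, Arr3 and Grk1 were among those below the filter, and Grk2 was not analysed here.

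Receptors that are known to be desensitised through arrestins changed in both directions. Of 18 listed, 13 were measured and 12 tested. By day 28, 6 rose and 1 fell in the labelled wild type (median 0.52), and 7 rose and 2 fell in the labelled knockout (median 0.84). Over all genes 38.8% and 38% were called. The largest rise was that of Fzd4, a Frizzled receptor for Wnt proteins and norrin, by 3.93 and 3.35. Agtr1a, the angiotensin II receptor, rose by 1.75 and 1.56, Ptger4, a prostaglandin E2 receptor, by 1.65 and 1.15, and S1pr1, a sphingosine 1-phosphate receptor, by 1.63 and 2.05. Cxcr4, the receptor for CXCL12, fell as early as Grk6 did, by 1.37 in the labelled wild type and by 1.25 in the labelled knockout on day 5, and was -1.53 and -0.88 from day 2 on day 28. Pth1r was not called, with changes of 0.40 and 0.86 by day 28 (adjusted p = 0.427 and 0.0774) from means of 7.74 ± 0.53 and 7.54 ± 0.63 (SD, n = 3) on day 2.

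The endocytic machinery that arrestins hand receptors to changed in both directions. All but 1 of 24 listed genes were tested (23). By day 28, 2 rose and 4 fell in the labelled wild type (median -0.06), and 3 rose and 1 fell in the labelled knockout (median -0.06). Over all genes 38.8% and 38% were called. Dnm1, a dynamin that pinches off coated vesicles, rose by 0.94 and 1.21 on day 5 and by 1.42 in each genotype by day 28, and Rab5b, an early endosome GTPase, by 0.61 and 0.55. Ap2a1, an α-adaptin of AP-2, fell by 0.66 and 0.54. In the labelled wild type Ap2a2 and Ap2m1, also AP-2 subunits, fell by 0.50 and 0.46, and their labelled knockout values of -0.39 and -0.30 were not called.

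Of 20 listed kinases and regulators that arrestins bind, 15 were tested. By day 28, 3 rose and 3 fell in the labelled wild type (median -0.09), and 2 rose and 4 fell in the labelled knockout (median -0.12). Map3k5, the stress kinase ASK1, rose by 1.31 and 1.43, and Ralgds, an exchange factor for Ral, by 0.66 and 0.63. Mdm2, the ubiquitin ligase that modifies β-arrestin 2, fell by 0.82 and 0.86, and Akt1 by 0.62 and 0.42. These genes, like the members, share the day 2 arrays of their genotype, and the counts stand beside 38.8% and 38% of all genes called by day 28.

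Between the genotypes none of the 6 relatives, 12 receptors, 23 endocytic genes or 15 kinases and regulators was called in limma on any day or over the mean of days. None of 15 macrophage, 11 osteoblast or 4 endothelial markers was called on any day or over the mean of days either. All 11 osteoblast markers were nonetheless higher in the labelled knockout on day 28 (median 0.59) and over the mean of days (median 0.22). The median over all genes tested was 0.01 in both comparisons. Of the 15 macrophage markers, 13 were higher on day 28 (median 0.35) and 14 over the mean of days (median 0.19). Of the 4 endothelial markers, 2 and 1 were. Adipocyte markers had median differences of -2.41 on day 10 and -1.40 on day 28, labelled knockout minus labelled wild type, with 0 of 10 positive on both days. Of these, 1 was called on each day: Fabp4, a fatty acid binding protein gene, at -5.10 on day 10 (adjusted p = 0.00791) and Lep, which encodes leptin, at -1.71 on day 28 (adjusted p = 0.0301). Of 8 muscle markers 1 was called, Myh8, a perinatal myosin heavy chain gene. It was higher in the labelled knockout by 3.01 on day 10 (adjusted p = 0.0138), by 2.68 on day 28 (adjusted p = 0.0206) and by 1.21 over the mean of days (adjusted p = 0.0444), with uncalled differences of -0.47 and -0.38 on days 2 and 5. Among the 5 members, Arrb2 was the 1 called.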

How the data were processed

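The arrays were Affymetrix Mouse Gene 2.0 ST, with 100 ng of RNA each, per the labels. The authors deposited log2 expression values, made by RMA, and the submitters' processing notes also name Affymetrix Expression Console; software versions and the array's build: not given in the sources used here. RMA gives the arrays like distributions, which would remove a change shared by most genes. Of 41345 transcript clusters, 23521 had 1 gene symbol, 1814 several and 16010 none, and only the first were named. Symbols were updated through a RefSeq table of GRCm38.p6 (23328 matched). The cluster with the highest mean stood for a gene, and genes at or above the array median in at least 3 of 24 arrays were tested.

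One mean per group was fitted to all 24 arrays in limma 3.58.1 (R 4.3.3; lmFit and eBayes, 16 residual degrees of freedom), with Benjamini-Hochberg adjustment over 14892 genes within each comparison; p-values are two-sided. The number of arrays limits the precision. The fit was tested on simulated data. Named genes were the members, the 3 genes most correlated with each, the 5 nearest tested genes on each side of Arrb2, up to 4 members of each list with the largest change past the threshold, Pth1r and list members where a list is described; predicted genes were left out. Grk3, Arrdc1, the relatives below the filter and the labelled knockout values of Ap2a2 and Ap2m1 are given to complete their lists. The members and lists were chosen with earlier results of these data known. Same-numbered arrays deviated together (every r above 0.1) for all 5 labelled knockout comparisons between days, and in the labelled wild type for day 5 against day 2 and day 10 against day 5. The pairing thus comes from the data. Between genotypes r ran from -0.079 to 0.516, and on no day was every r above 0.1. The other labelled wild-type comparisons did not meet that rule either. Alternatives were no filter, a stricter filter, centring, a second quantile normalisation, array weights, a fit of only the groups compared, blocks and leaving out arrays.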

Additional observations from a re-analysis of the deposited data

Results flagged for a closer look

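The sign of the Arrb2 difference between day 28 and day 2 was not the same in the 2 genotypes: 0.56 in the labelled wild type, which was called, and -0.24 in the labelled knockout, which was not (adjusted p = 0.31). The labelled knockout change minus the labelled wild-type change was -0.81 on the log2 scale. From the same-numbered day 2 array the labelled wild-type arrays differed by 0.43, 0.43 and 0.83. The labelled knockout arrays differed by -0.16, -0.32 and -0.25. Over all genes tested, same-numbered labelled wild-type arrays of these days did not all deviate together at r above 0.1. Xist nonetheless set the labelled wild-type arrays numbered 2 apart on both days. The limma test of the difference had an unadjusted p of 0.0046 and an adjusted p of 0.977 over 14892 genes, so it is not shown at the level of the whole array.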

How the results depend on the processing

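Of 16 called values of the members, 9 kept their call under every alternative run, and of 74 uncalled values 67 were never called; none of the called values changed sign. The count of members called by day 5 in the labelled knockout went from 1 to 0 with no filter, with only the groups compared and without the labelled knockout preparation numbered 2. By day 10 in the labelled knockout it went from 1 to 2 (Arrb2) with centred arrays, array weights or the replicate block, and by day 10 in the labelled wild type to 2 (Grk5, adjusted p = 0.0369) with array weights. Between the genotypes on day 2 it went from 1 to 0 with a second quantile normalisation, with only the groups compared and without that preparation; the rise from day 5 to day 10 in the labelled wild type went from 1 to 0 with only the groups compared. With the replicate block the step from day 10 to day 28 went from 0 to 1 in each genotype. The call was Arrb1 in the labelled knockout and Arrb2 in the labelled wild type (adjusted p = 0.0184). For that labelled wild-type step, same-numbered arrays did not all deviate together at r above 0.1. With a block across genotypes the day 10 difference went from 0 to 1. With preparation means the mean difference over days went from 1 to 0. With a preparation as a random block, the mean difference of Arrb2 had an adjusted p of 5.92e-05. The replicate block changed no other member's call. Grk4 by day 28 was called in the labelled wild type with only the groups compared (adjusted p = 0.0317). Leaving out 1 array gave counts of 0 to 1 for the genotypes on days 2 and 10, for the labelled knockout by day 5 and from day 10 to day 28, and for the labelled wild type from day 5 to day 10, and 1 to 2 for the labelled wild type by day 5. By day 28 the labelled wild type lost Arrb2 in 2 of 6 such fits. The labelled knockout by day 28 lost Grk5 in 3 of 6 and gained Grk4 without day 2 replicate 2. The cause of these changes was not tested. With 3 arrays a group, signal near the array median (Grk4) limits what can be seen.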
